A study of Rattus norvegicus with 16 samples.

Results

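The genes described are those that hold, coat and empty the hepatic lipid droplet: G0s2, Pnpla2, Abhd5, Lipe, Mgll, Plin2, Plin4, Plin5, Cidec and Hilpda. They were chosen by function, as the triglyceride lipase with its inhibitor and activator and the droplet coat proteins, but also with earlier values of G0s2 and of others among them in these same livers in view, so that the CPM values of the 4 groups that selected them are given as a description and no p-value is printed for any of them. Of the 10 symbols, 8 are among the 17055 in the count files and 7 held at least 1 read. All 7 passed the filter on low counts in every comparison. Plin4 and Hilpda were not analysed here.

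Livers came from 48 male Sprague-Dawley rats aged 10 weeks, 12 per group, and poly(A) RNA was sequenced as 16 libraries, 4 per group, each a pool of 3 rats. The Isoflurane sepsis group (libraries 1 to 4) was induced and kept under isoflurane and underwent cecal ligation and puncture (CLP), in which the bowel is pierced so that its content infects the abdomen, while in the Isoflurane control group (libraries 5 to 8) the cecum was exposed and put back unharmed. The Propofol sepsis (libraries 9 to 12) and Propofol control (libraries 13 to 16) groups had the same 2 operations after induction with ketamine-xylazine and under propofol, which is infused in a lipid emulsion. Livers were taken 8 h after celiotomy in all groups, so that no group was free of anesthesia or surgery, and the anesthetic groups also differed in their induction drugs. The study asked whether the anesthetic alters the response of the liver to sepsis.

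Fat in the hepatocyte is kept as triglyceride inside droplets that are wrapped in a protein coat. Lipolysis empties them in steps. The lipase encoded by Pnpla2 (ATGL) removes the first fatty acid, Abhd5 (CGI-58) activates that lipase and G0s2 inhibits it. Lipe, hormone-sensitive lipase, acts mainly on the diglyceride that remains, and Mgll, monoglyceride lipase, releases the last fatty acid. Perilipins such as Plin2 and Plin5 coat the droplet and control access of the lipases, and Cidec promotes fusion of droplets into larger ones. G0s2 is also a target of nuclear receptors that respond to fatty acids and of insulin and feeding.

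The sequence before the start site is shown for the inhibitor (G0s2) and for Mgll and Plin5, which were lower in sepsis under both anesthetics. It is also shown for Plin2, whose level followed that of G0s2 within Isoflurane sepsis but not within the propofol groups. Each is the stretch of 250 bases before the start of the gene in RefSeq on GRCr8, which is not the rn5 build named in the submitters' notes, and windows were found for 9 of the 10 symbols (none for Lipe). The G0s2 window lies at chr13:107335949-107336198 (minus strand) and that of Mgll at chr4:122749186-122749435 (plus strand). The Plin2 window lies at chr5:106229019-106229268 (minus strand, the first of 2 start sites) and that of Plin5 at chr9:1033285-1033534 (minus strand). Capitals mark matches on either strand to AGGTCA, the core letters of nuclear receptor sites, or to ACGTG, the core shared by the hypoxia response element and the E-box.
G0s2: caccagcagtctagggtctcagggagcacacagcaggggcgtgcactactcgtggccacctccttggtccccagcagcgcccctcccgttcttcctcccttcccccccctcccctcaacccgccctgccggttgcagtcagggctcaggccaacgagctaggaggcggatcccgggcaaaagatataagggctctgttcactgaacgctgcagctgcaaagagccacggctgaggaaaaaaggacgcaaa
Mgll: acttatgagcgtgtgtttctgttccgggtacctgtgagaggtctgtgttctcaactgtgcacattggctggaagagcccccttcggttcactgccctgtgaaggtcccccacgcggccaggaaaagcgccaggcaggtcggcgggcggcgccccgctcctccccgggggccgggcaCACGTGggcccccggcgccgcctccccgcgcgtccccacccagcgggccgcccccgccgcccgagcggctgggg
Plin2: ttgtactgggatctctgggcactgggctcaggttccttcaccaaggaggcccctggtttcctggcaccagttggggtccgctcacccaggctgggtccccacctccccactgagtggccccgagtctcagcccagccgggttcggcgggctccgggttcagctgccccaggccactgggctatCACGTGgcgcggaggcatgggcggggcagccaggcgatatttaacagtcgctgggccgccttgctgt
Plin5: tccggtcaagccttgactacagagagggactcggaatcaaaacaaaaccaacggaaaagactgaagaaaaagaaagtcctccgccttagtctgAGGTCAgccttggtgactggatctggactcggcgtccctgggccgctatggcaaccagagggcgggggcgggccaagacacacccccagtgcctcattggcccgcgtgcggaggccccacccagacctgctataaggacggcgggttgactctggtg
In Mgll the match begins 74 bases before the start and in Plin2 67 bases before it, and in both it reads CACGTG, a palindrome that therefore holds ACGTG on both strands. Plin5 has 1 AGGTCA, 157 bases before the start. G0s2 has neither motif before its start and 1 TGACCT, the other strand of AGGTCA, 23 bases after it. Of the windows not shown, that of Abhd5 has AGGTCA 207 bases before the start and that of Hilpda ACGTG 47 bases before it. Those of Pnpla2, Plin4 and Cidec have neither motif. Among all 33469 windows of 300 bases, which also take in 50 bases after the start, 16.2% hold AGGTCA and 19.3% ACGTG, and 6.42% hold CACGTG, a motif that was counted after the windows had been seen. These matches are letters in a window and were not tested as binding sites.

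The libraries held 14199422 to 49937173 reads on genes, so that a level of 1 CPM (counts scaled to a fixed library total) rested on at least 14.2 reads. Levels below are CPM scaled by TMM, and fold changes are those of edgeR's quasi-likelihood fit to the counts of all genes, with a gene called where its Benjamini-Hochberg adjusted p was below 0.05. Hepatocyte markers summed to 112000 to 126000 CPM in Isoflurane sepsis and 134000 to 144000 in its controls, without overlap, and to 94600 to 103000 in Propofol sepsis and 101000 to 113000 in its controls. Alb was the largest part (54800 to 94700 CPM), and the genes of this sum did not move together. Apoa1 was called lower in sepsis under isoflurane and propofol (log2 fold changes -0.735 and -0.463) and Alb under isoflurane alone (-0.247). Tat was called higher under propofol alone (1.31). Ttr, Tf and Serpina1 were not called. The 7 adipocyte markers summed to 7.61 to 15.9 CPM over all libraries, most of it from Cfd (6.23 to 13 CPM) and Cidea (0.851 to 4.06 CPM), with 27 reads of Retn, 8 of Adipoq, 2 of Lep and none of Plin1 or Ucp1 in the 16 libraries together. Markers of the hepatic stellate cell, which stores retinoid in droplets of its own, summed to 105 to 135 CPM in Isoflurane sepsis and 93 to 102 in its controls, without overlap, and to 107 to 149 in Propofol sepsis and 107 to 116 in its controls. The genes of this stellate sum did not move together. Lrat was called lower in sepsis under isoflurane and propofol (log2 fold changes -0.639 and -0.828). Dcn was called higher under each (1.72 and 0.959) and Des under isoflurane alone (1.375). Reln, at 62.8 to 108 CPM the largest part of the sum, and Rgs5 were not called. In bulk liver, fewer cells of a type and less RNA per cell cannot be told apart. The summed CPM of 6 neutrophil markers was 33.9 to 106 in Isoflurane sepsis against 17.5 to 19.8 in its controls, and 38.1 to 48.5 in Propofol sepsis against 18.4 to 24.1, and the part of any of these cell types in the results was not tested.

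Under propofol the inhibitor G0s2 was 12.6-fold lower in sepsis. It stood at 38.8, 61.3, 48.8 and 61.8 CPM in Propofol control libraries 13 to 16 and at 7.10, 3.00, 3.71 and 3.25 CPM in Propofol sepsis libraries 9 to 12. The groups lay far apart, with the highest septic library well under the lowest control. The log2 fold change was -3.66 (SE 0.264, 95% interval -4.25 to -3.07, n = 4 against 4), and 4 of the 10348 genes tested had a lower one. Without any 1 library the log2 fold change ranged from -3.99 to -3.52. The rank is a description, since G0s2 was chosen with its earlier values in view.

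Under isoflurane the septic libraries did not form one level. G0s2 was 4.11, 19.8, 35.0 and 5.24 CPM in Isoflurane sepsis libraries 1 to 4, an 8.51-fold span, against 21.9, 14.6, 23.3 and 23.3 CPM in Isoflurane control libraries 5 to 8. These libraries also stood further apart over all genes, with a chi-square per degree of freedom between their counts of 25.4 to 101.7 by pair, against 3.47 to 12.7 in Isoflurane control, 7.95 to 46.8 in Propofol sepsis and 6.70 to 28.3 in Propofol control, a measure that also grows with depth. Libraries 1 and 4 were as low as those of Propofol sepsis, library 2 was within the range of its controls and library 3 was above it. The log2 fold change was -0.35 (SE 0.584, 95% interval -1.67 to 0.968) and was not called. Library 3 decided much of this value, which was -1.11 without it and -0.02 without library 1, neither of them called.

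The difference between the responses, isoflurane minus propofol, was 3.28 for G0s2 on the log2 scale (SE 0.705, 95% interval 1.78 to 4.78, all 16 libraries). It was called higher, and 4 of 10621 genes had a higher value. Both are descriptions, since G0s2 was chosen with its earlier values in view. The call was lost, with differences of 2.53 to 3.34, on leaving out any 1 of 9 libraries (3, 5, 6, 7, 8, 11, 12, 14 or 15). The control groups also differed before any sepsis. G0s2 averaged 20.8 ± 4.19 CPM (SD, n = 4) in Isoflurane control and 52.7 ± 11.04 CPM in Propofol control, without overlap, a log2 difference of -1.33 (SE 0.168). Ordered by mean, the groups ran from Propofol sepsis (4.27 ± 1.91 CPM) over Isoflurane sepsis (16.04 ± 14.5) and Isoflurane control to Propofol control, with overlapping libraries in the first and second of these steps. The middle pair did not differ beyond its spread. The names of the deposited libraries carry a different prefix under each anesthetic, so that anesthetic, induction drugs and library set cannot be told apart between the controls.

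**Figure D1:**
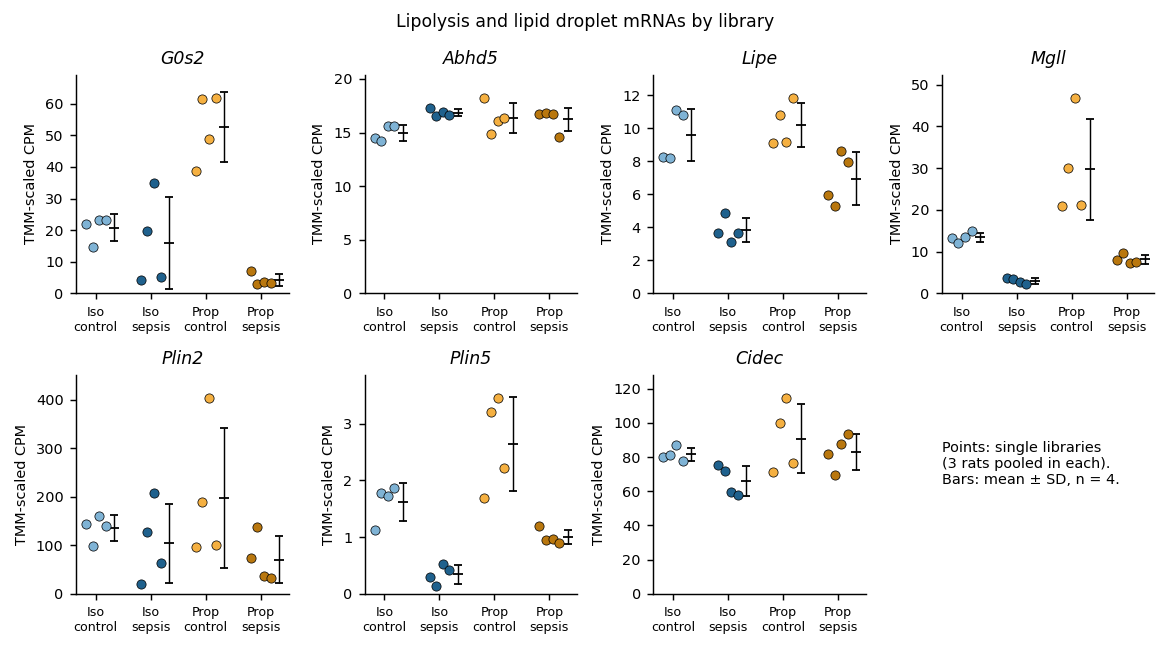
TMM-scaled CPM (vertical axis, linear, from 0) of the 7 detected genes in each of the 16 libraries (points) of the 4 groups, with mean and SD beside them (n = 4). G0s2 is between 3.00 and 7.10 CPM in Propofol sepsis and spread from 4.11 to 35.0 CPM in Isoflurane sepsis, while Mgll in septic libraries lies below its controls under both anesthetics.

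The lipase that G0s2 inhibits could not be read. Pnpla2 was listed at 0 in all 16 libraries, as were 2968 symbols (17.4%). In the RefSeq gene order, 4 of the 8 preceding neighbours that are in the files were also at 0 throughout, among them Rplp2, a ribosomal protein gene that every cell uses, and so were 3 of the 5 that follow (Cd151, Tspan4 and Chid1). The zeros of Pnpla2 are therefore given as a listing and not as absent expression. Its activator Abhd5 was the steadiest of the genes. It was 16.6 to 17.3 CPM in Isoflurane sepsis, 14.2 to 15.6 in Isoflurane control, 14.6 to 16.9 in Propofol sepsis and 14.8 to 18.2 in Propofol control. Under isoflurane the groups did not overlap and the log2 fold change of 0.19 (SE 0.0686) was called higher, a call lost without any 1 of the 8 libraries (0.16 to 0.20), by DESeq2 and with library totals alone (0.12). Under propofol it was -0.01 (95% interval -0.201 to 0.183) and was not called.

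The lipases of the later steps were lower in sepsis under both anesthetics. Mgll was 3.72, 3.49, 2.79 and 2.18 CPM in Isoflurane sepsis against 13.2, 12.2, 13.4 and 14.9 CPM in Isoflurane control. In Propofol sepsis it was 8.12, 9.62, 7.32 and 7.58 CPM against 21.01, 29.9, 46.8 and 21.3 CPM in Propofol control. Neither pair of groups overlapped. Septic libraries lay wholly below their controls for 25.4% of all genes tested under isoflurane and 21.4% under propofol. The log2 fold changes were -2.12 (SE 0.152) and -1.86 (SE 0.252), or 4.36-fold and 3.64-fold lower, and both were called in every alternative run. The difference of the responses was -0.27 (95% interval -0.956 to 0.422) and was not called, which leaves room for unequal responses within that interval. The controls themselves differed, with Mgll 2.21-fold lower in Isoflurane control than in Propofol control (log2 difference -1.14, SE 0.224).

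Lipe, the hormone-sensitive lipase, was 3.67, 4.85, 3.10 and 3.65 CPM in Isoflurane sepsis and 8.29, 8.22, 11.1 and 10.8 CPM in Isoflurane control. It was 5.96, 5.29, 8.61 and 7.95 CPM in Propofol sepsis and 9.08, 10.8, 9.16 and 11.8 CPM in Propofol control. Septic libraries again lay below all their controls, by a wide gap under isoflurane and a narrow one under propofol. The log2 fold change was -1.32 (SE 0.162) under isoflurane, called in every alternative, and -0.55 (SE 0.161) under propofol, where the call was lost without library 9, 14 or 16 (-0.52 to -0.47). The difference of the responses, -0.78 (SE 0.238), was not called by edgeR, and it was called by DESeq2 and without library 10. Lipe in the control groups differed by -0.08 on the log2 scale (95% interval -0.36 to 0.206).

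Plin5, the perilipin of oxidative tissues that tethers droplets to mitochondria, was scarce, with 2 to 89 reads per library. It was 0.297, 0.129, 0.517 and 0.412 CPM in Isoflurane sepsis against 1.13, 1.77, 1.73 and 1.87 CPM in Isoflurane control, and 1.19, 0.953, 0.969 and 0.890 CPM in Propofol sepsis against 1.69, 3.21, 3.45 and 2.22 CPM in Propofol control. The groups were apart under each anesthetic. The log2 fold changes were -2.21 (SE 0.332) and -1.41 (SE 0.256), called in every alternative, and their difference of -0.81 (95% interval -1.73 to 0.114) was not called. Between the controls Plin5 was called lower under isoflurane (log2 difference -0.68, SE 0.233) although the groups overlapped, and that call was lost without library 5, 6, 7, 14 or 15 (-0.72 to -0.53).

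**Figure D2:**
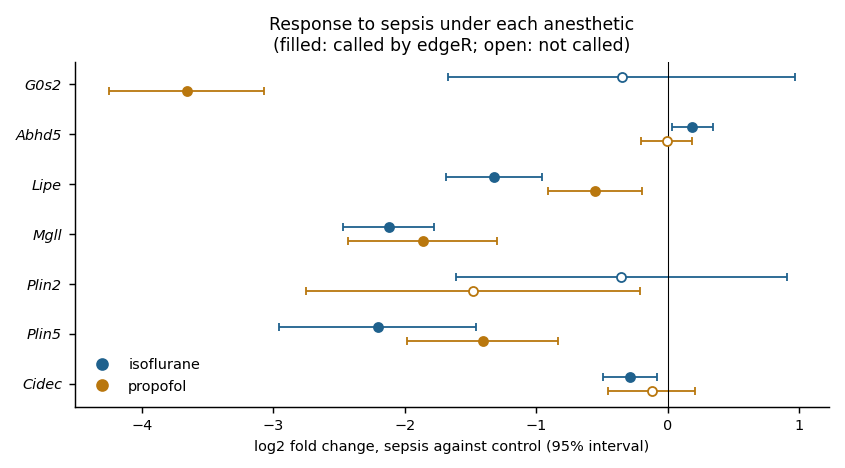
Log2 fold change of sepsis against control (horizontal axis) with its 95% interval for the 7 genes under isoflurane and propofol, filled where edgeR's fit over all genes called it. G0s2 sits at -3.66 under propofol and at -0.35 with a wide interval under isoflurane, while Lipe, Mgll and Plin5 are below 0 under both.

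Plin2, the main perilipin of the fat-laden hepatocyte, varied more between libraries than between groups. It was 19.7, 126, 208 and 63.2 CPM in Isoflurane sepsis, a 10.5-fold span, against 143, 97.8, 160 and 141 CPM in Isoflurane control. In Propofol sepsis it was 74.2, 137, 36.5 and 31.8 CPM against 95.8, 189, 403 and 101 CPM in Propofol control. Both pairs of groups overlapped. The log2 fold change was -0.35 under isoflurane (95% interval -1.61 to 0.908) and -1.48 under propofol (95% interval -2.75 to -0.211), and neither was called. Library 3 was decisive under isoflurane (-0.95 without it, -0.01 without library 1), and under propofol the value went from -0.87 without library 15 to -2.06 without library 10, where it was called, as it was without library 13 (-1.71). The difference of the responses was 1.11 (SE 0.864) and was not called.

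Within Isoflurane sepsis, Plin2 followed the same order of libraries as G0s2, with library 1 lowest, then 4, 2 and 3. Over all 16 libraries, Pearson's r between their log2 CPM was 0.731, and it was 0.649 after the mean of each group had been taken away. Both values are descriptions, since G0s2 and Plin2 are read from the same library, with its own depth and composition. Within the propofol groups the order of libraries was not shared. Library 10 of Propofol sepsis had the lowest G0s2 of all (3.00 CPM) and 137 CPM of Plin2. Library 15 of Propofol control had the highest Plin2 of all (403 CPM) and less G0s2 (48.8 CPM) than libraries 14 and 16. The summed neutrophil markers in libraries 1 to 4 were 33.9, 68.9, 106 and 83.5 CPM, lowest and highest in the same libraries as G0s2 and Plin2, and their part in this was not tested. Among the other genes, Mgll and Cidec deviated together from their group means (r = 0.681), and the deviations of G0s2 showed little relation to those of Abhd5, Lipe, Mgll, Plin5 and Cidec (r from -0.0473 to 0.102).

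**Figure D3:**
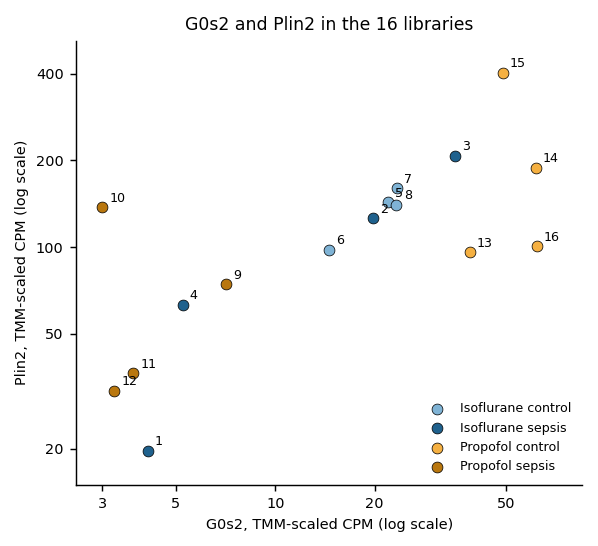
TMM-scaled CPM of Plin2 (vertical) against G0s2 (horizontal), both axes logarithmic, with 1 point for each of the 16 libraries, labelled by number and colored by group. Libraries 1 to 4 of Isoflurane sepsis run from 4.11 to 35.0 CPM of G0s2 and from 19.7 to 208 CPM of Plin2. Library 10 has 3.00 CPM of G0s2 and 137 CPM of Plin2, and library 15 has 48.8 and 403 CPM.

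Cidec, the droplet fusion protein, was 58.0 to 75.3 CPM in Isoflurane sepsis and 77.7 to 87.0 CPM in Isoflurane control, with no overlap. The log2 fold change of -0.29 (SE 0.0908) was called lower, and the call was lost with all 16 libraries in 1 fit (-0.29) and without library 3, 5, 6 or 7 (-0.30 to -0.25). Under propofol the groups overlapped, at 69.3 to 93.7 CPM in sepsis and 71.5 to 114 CPM in controls, and the log2 fold change of -0.12 (95% interval -0.455 to 0.209) was not called. In each anesthetic, then, 4 of the 7 genes were called lower in sepsis, Lipe, Mgll, Plin5 and Cidec under isoflurane and G0s2, Lipe, Mgll and Plin5 under propofol. Abhd5 was called higher under isoflurane and none was under propofol, where edgeR gave 0 higher at an unadjusted p below 0.05 and DESeq2 gave 0.

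These counts are set beside the share of all genes and nothing is read from them, since the comparisons themselves had a part in the choice of the genes. Under isoflurane 24.4% of the 10361 genes tested were called lower and 25.7% higher, and under propofol 21.7% of 10348 were called lower and 20.4% higher. A lack of overlap between sepsis and control was common too. Septic libraries were all lower for 25.4% of genes and all higher for 23.4% under isoflurane, and for 21.4% and 20.1% under propofol. For the difference of the responses 1 of the 7 was called higher (G0s2) and 0 lower (1, Lipe, at an unadjusted p below 0.05 in edgeR and 1 by DESeq2), against 1.66% and 1.06% of 10621 genes. Between the controls 3 of the 7 were called lower under isoflurane (G0s2, Mgll and Plin5) and 0 higher (0 at an unadjusted p below 0.05 in edgeR and 0 by DESeq2), against 21.7% and 21.6% of 10314 genes. The median log2 fold change of the 7 was -0.353 under isoflurane and -1.41 under propofol, where that of all genes tested was 0.00609 and -0.0016.

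By the smallest root mean square difference between log2 CPM centered on each gene, over 16 libraries and 10614 other genes, the patterns most like that of G0s2 were those of Adh1 (0.64), the hepatic alcohol dehydrogenase, Xkr9 (0.667), Ppp1r3b (0.736), a glycogen-targeting subunit of protein phosphatase, Slc2a2 (0.763), the hepatocyte glucose transporter GLUT2, and Tuba3a (0.787), a tubulin. Adh1 averaged 72.0 ± 17.9 CPM in Propofol sepsis and 516 ± 306 in Propofol control, and 121 ± 95.9 in Isoflurane sepsis and 318 ± 58.0 in Isoflurane control (SD, n = 4). Slc2a2 averaged 64.8 ± 10.3 and 288 ± 110 CPM in the propofol groups and 157 ± 102 and 300 ± 30.5 CPM in the isoflurane groups. Both were thus spread widely in Isoflurane sepsis, as G0s2 was. Ppp1r3b averaged 15.5 ± 2.90 CPM in Propofol sepsis, 67.4 ± 10.9 in Propofol control, 24.6 ± 9.79 in Isoflurane sepsis and 32.0 ± 4.30 in Isoflurane control, the same order of groups as G0s2. The means of Adh1 and Xkr9 ran in that order too, and those of Slc2a2 and Tuba3a did not. When likeness was measured on the 4 group means instead, Adh1 and Xkr9 were again among the nearest 5, with Rgs16 (0.413) nearest.

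**Figure D4:**
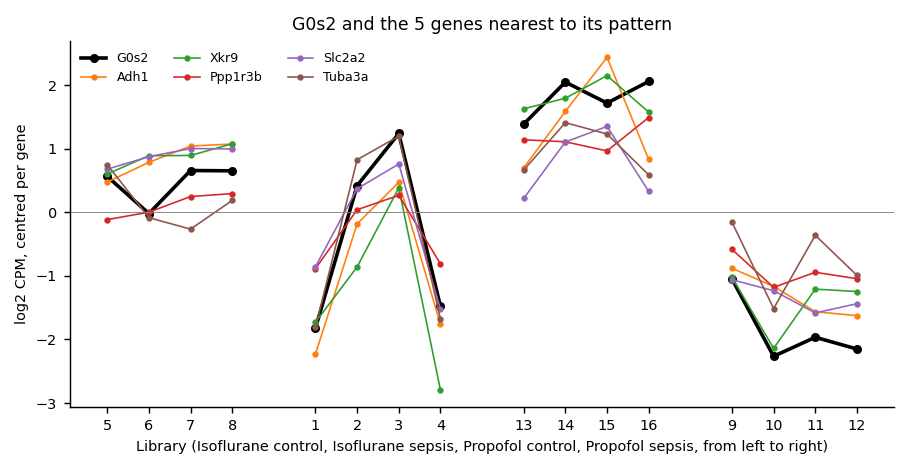
Log2 CPM centered on each gene (vertical axis) for G0s2 (heavy black) and the 5 genes nearest to it, in the 16 libraries by group, with lines that only guide the eye since libraries of a group have no order. The 6 genes are above 0 in Propofol control, below 0 in Propofol sepsis and low in libraries 1 and 4 but not in library 3 of Isoflurane sepsis.

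Of 78 listed symbols of other lipid-handling genes, 68 were in the files. In sepsis 15 rose and 19 fell of the 61 that were tested under isoflurane, and 14 rose and 27 fell of 62 under propofol, with medians of -0.065 and -0.15. Their shares are thus 24.6% and 31.1% under isoflurane and 22.6% and 43.5% under propofol, to be set beside the shares of all genes above. None of the 63 tested was called for the difference of the responses in edgeR, where 6 were higher and 6 lower at an unadjusted p below 0.05, and DESeq2 called 2 higher (Agpat9 and Hif1a) and 1 lower (Bscl2). Of the 60 called responses of the genes named by rule below, 53 were called in every alternative. The adjusted p-values are those of edgeR's quasi-likelihood test over all genes.

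Among 8 lipases and hydrolases tested, 2 rose and 1 fell under isoflurane, and 2 rose and 3 fell under propofol. Lpl, lipoprotein lipase, which adult hepatocytes express little, rose by 1.08 on the log2 scale under isoflurane (SE 0.262, adjusted p = 0.00882), from 13.7 ± 0.809 to 28.5 ± 12.1 CPM, and by 0.85 under propofol (SE 0.200, adjusted p = 0.0078). Abhd6, a second monoglyceride lipase, fell by 1.31 and 0.86 (adjusted p = 2.3e-05 and 0.00369), and Pnpla7, a lysophospholipase, rose by 0.49 and 0.40 (adjusted p = 0.00428 and 0.00472). The lysosomal acid lipase Lipa stood at 174 to 189 CPM in Propofol control and 68.8 to 97.0 CPM in Propofol sepsis and fell by 1.20 (adjusted p = 3.92e-05). In Isoflurane sepsis Lipa was 43.5, 46.6, 62.4 and 124 CPM against 91.6 to 99.5 CPM, with library 4 above the controls, and it was not called (-0.45, adjusted p = 0.247). Ces1e, a carboxylesterase, fell under propofol (-0.52, adjusted p = 0.00276) and was at -0.14 under isoflurane (adjusted p = 0.275).

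Of 8 droplet coat and biogenesis genes tested, 0 rose and 4 fell under isoflurane and 2 rose and 5 fell under propofol. No gene of the list was higher at an unadjusted p below 0.05 in edgeR under isoflurane, and DESeq2 called 0. Cideb, which enlarges droplets and lipidates VLDL in hepatocytes, fell by 1.54 under isoflurane (SE 0.196, adjusted p = 0.000404) and by 1.17 under propofol (SE 0.148, adjusted p = 0.000294), and Fitm2, needed for droplets to bud from the endoplasmic reticulum, fell by 1.04 and 1.00 (adjusted p = 0.00011 and 0.000482). Hsd17b13, a droplet enzyme of hepatocytes, fell by 0.61 and 0.70 (adjusted p = 0.00588 and 0.00183). Under propofol Cidea fell (-0.76, adjusted p = 0.0173), and Bscl2 (seipin) and Rab18 rose by 0.49 and 0.22 (adjusted p = 0.0174 and 0.0077). Under isoflurane the 3 were at -0.25, -0.47 and 0.02 and were not called (adjusted p = 0.555, 0.133 and 0.896). With all 16 libraries in 1 fit their calls under propofol were lost, as was that of Bscl2 without library 9 (0.412 to 0.499 for Bscl2 over both settings).

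In triglyceride synthesis 2 of 11 genes rose and 4 fell under isoflurane, and 1 of 12 rose and 6 fell under propofol. Dgat2, which makes triglyceride in its last step, fell by 1.33 and 1.44 (SE 0.203 and 0.188, adjusted p = 0.000943 and 0.000353). Agpat9, the older symbol of the glycerol-phosphate acyltransferase Gpat3, moved the other way. It was 3.77, 13.4, 43.2 and 24.1 CPM in Isoflurane sepsis against 1.31 to 1.67 CPM in Isoflurane control, a rise of 3.84 on the log2 scale (SE 0.667, adjusted p = 0.0018). Library 1 was lowest here too, and library 3 highest. Under propofol it rose by 1.21 (adjusted p = 0.0347) with overlapping groups, a call lost with all 16 libraries in 1 fit and without library 9, 10, 13, 14 or 15 (0.778 to 1.28), and the difference of the responses was 2.61 (adjusted p = 0.0878).

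Gpam, the mitochondrial enzyme of the first step, fell under propofol (-0.93, adjusted p = 0.000372), as did Lpin2 (-0.80, adjusted p = 0.00224), a phosphatidate phosphatase. Under isoflurane they were at -0.00399 and -0.07, with standard errors of 0.425 and 0.342, and were not called. Lpin3, of the same family as Lpin2, fell by 1.05 under isoflurane and 0.58 under propofol (adjusted p = 0.000888 and 0.000472), and Agpat3 by 0.91 and 0.58 (adjusted p = 0.000344 and 0.00287). Agpat6, now Gpat4, rose by 0.26 under isoflurane (adjusted p = 0.0361) and was at 0.06 under propofol (adjusted p = 0.539). Its call was lost in 8 of 14 alternatives (0.183 to 0.273), among them those without library 2, 3, 5, 6, 7 or 8. Export was split in the same way under both anesthetics. Apob, the coat protein of VLDL, rose by 0.60 in each (SE 0.125 and 0.0668, adjusted p = 0.00414 and 0.000168), whereas Mttp, which loads fat onto it, fell by 1.5 and 1.09 (adjusted p = 1.01e-05 and 0.000409), from 206 ± 12.4 to 72.2 ± 3.75 CPM under isoflurane and from 230 ± 51.1 to 108 ± 11.3 CPM under propofol.

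Of 14 genes of fatty acid uptake, binding and activation, 5 rose and 4 fell under isoflurane and 4 rose and 6 fell under propofol. The binding proteins Fabp4 and Fabp5, typical of fat cells, macrophages and endothelium, rose by 1.70 and 1.23 under isoflurane (adjusted p = 0.000754 and 0.000343) and by 2.57 and 1.09 under propofol (adjusted p = 4.88e-05 and 0.000108). The summed Kupffer cell and macrophage markers were 292 to 375 CPM in Isoflurane sepsis and 247 to 313 CPM in its controls. In Propofol sepsis they were 287 to 331 CPM against 294 to 333 CPM. The markers in this sum did not move together. Emr1 was called higher in sepsis under isoflurane and propofol (1.70 and 0.954), as was Marco (0.717 and 0.425). Clec4f was called lower under each (-0.597 and -0.817). Cd68, Cd163 and Csf1r were called higher under isoflurane alone, and Vsig4 was not called. The hepatocyte protein Fabp1 fell by 0.49 under each (adjusted p = 0.00241 and 0.00568), and the hepatic acyl-CoA synthetase Acsl1 fell by 1.58 and 1.77 (adjusted p = 0.000111 and 0.000184). Slc27a2, a fatty acid transporter, fell by 0.58 and 0.44 (adjusted p = 0.000819 and 0.00708) and Slc27a5 fell by 0.64 and 0.32 (adjusted p = 0.00917 and 0.0473), the second with overlapping groups and not called in 8 of 14 alternatives (-0.34 to -0.25), among them those without library 10, 11, 12, 14, 15 or 16. Slc27a4 rose by 0.70 and 0.61 (adjusted p = 0.000404 and 0.012). The lipoprotein receptor Vldlr, a target of hypoxia signaling, rose under isoflurane by 1.54 (adjusted p = 0.000388) and was at 0.44 under propofol (adjusted p = 0.276).

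Among 18 regulators and signals of lipolysis, 5 rose and 5 fell under isoflurane, and 4 rose and 6 fell under propofol. The hepatokine Fgf21 fell most of them, by 2.66 under isoflurane and 3.42 under propofol (SE 0.415 and 0.396, adjusted p = 0.00103 and 0.000197). It was 2.13 to 8.74 CPM in Isoflurane sepsis and 19.3 to 34.2 CPM in its controls, and 4.83 to 7.05 CPM in Propofol sepsis and 28.7 to 114 CPM in its controls. Creb3l3, a hepatocyte factor that activates Fgf21 in fasting, fell by 1.28 and 1.00 (adjusted p = 0.000603 and 6.44e-05). Pparg, the nuclear receptor that drives G0s2 in fat cells, fell by 0.77 and 1.48 (adjusted p = 0.0246 and 0.000697). Under isoflurane that call was lost with thinned counts and without library 2, 5, 7 or 8 (-0.77 to -0.57). Pparg was scarce, at 0.648 to 1.345 CPM in Isoflurane sepsis and 1.378 to 1.743 CPM in its controls. Its range was 0.676 to 1.19 CPM in Propofol sepsis and 2.08 to 2.445 CPM in its controls.

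On the side of insulin, whose signal restrains lipolysis, Irs2 rose by 1.59 and 1.90 (adjusted p = 0.000844 and 0.000677) and Irs1 by 0.75 and 1.28 (adjusted p = 0.000232 and 0.000621). Irs2 averaged 232 ± 75.2 CPM in Isoflurane sepsis, 78.4 ± 10.6 in Isoflurane control, 96.7 ± 28.2 in Propofol sepsis and 25.98 ± 10.6 in Propofol control. The insulin receptor gene Insr rose by 0.47 and 0.66 (adjusted p = 0.00293 and 0.000158). These are mRNA levels, and insulin signaling itself was not measured. Hif1a, the oxygen-sensing factor, rose by 0.75 under isoflurane (adjusted p = 0.00318) and was at 0.17 under propofol (adjusted p = 0.0512). Ppara, the fatty acid receptor of the hepatocyte, was not called under either anesthetic (0.64, SE 0.546, and -0.37, SE 0.279). Its target Angptl4, an inhibitor of Lpl, was also not called (0.60 and -0.51, adjusted p = 0.179 and 0.269), and averaged 28.8 ± 7.23 CPM in Isoflurane control and 136 ± 75.4 CPM in Propofol control.

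**Figure D5:**
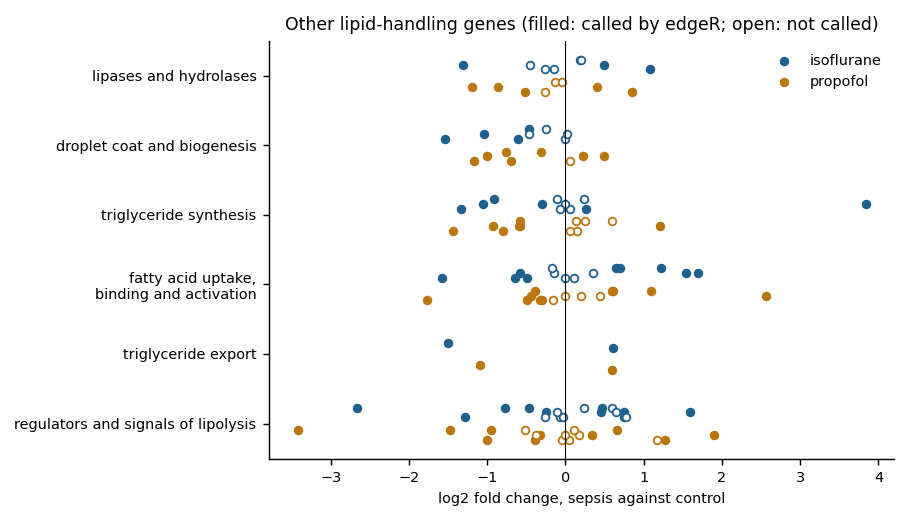
Log2 fold change of sepsis against control (horizontal axis) for each tested gene of the 6 lists of other lipid-handling genes (rows), under isoflurane and propofol, filled where edgeR called it. Agpat9 at 3.84 under isoflurane and Fgf21 at -3.42 under propofol are the outermost points, and Apob and Mttp lie on opposite sides of 0 under both anesthetics.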

How the data were processed

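Liver RNA of 16 pooled libraries was compared, with groups and library numbers taken from the sample labels. The deposited values are raw counts of reads per gene symbol, 1 file per library. The authors selected poly(A) RNA, made stranded libraries and read single ends. The submitters' processing notes name STAR and rn5, and no source used here names the counting program, its settings or the annotation. Reads outside genes (21.61 to 25.39%) and ambiguous reads (1.074 to 1.351%) were left out of library sizes, and genes that overlap or share sequence may lose reads to these classes.

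Counts were fitted with edgeR 4.0.16 (R 4.3.3), with TMM scaling, filterByExpr (minimum count 10, minimum total 15), the quasi-likelihood test and Benjamini-Hochberg adjustment over all genes tested, called below 0.05. Each anesthetic was fitted on its own 8 libraries, as were the 2 control groups, and the difference of the responses on all 16. SE is the log2 fold change over the root of F. The libraries are pools of 3 rats, and the p-values measure the spread between pools. Replicates were checked for duplicates, and every pair differed beyond sampling noise. The script was tested on simulated data. CPM values for single libraries are TMM-scaled, and their intervals cover the spread between pools.

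Alternatives were DESeq2 1.42.0 (the program the study names), RLE factors, library totals alone, no filter, 1 fit of all 16 libraries, counts drawn down to the smallest total, and each library left out. The genes, the lists of other genes and the rules were chosen with earlier results of these data known. Named from each list were the up to 3 called genes with the largest positive and negative log2 fold change per anesthetic, any gene called for the difference of the responses, and the 5 genes nearest to G0s2. Each named gene is given under both anesthetics, and Ppara and Angptl4 were named after their values were seen. Gene order and promoter windows come from RefSeq on GRCr8, where 14175 symbols were matched, and no coordinate was carried over from rn5. Transcript lengths were not used here, so that levels of different genes can be set side by side only as shares of reads. That holds for the sums over markers too.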

Additional observations from a re-analysis of the deposited data

Results flagged for a closer look

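The response of G0s2 to sepsis differed between the anesthetics by 3.28 on the log2 scale (SE 0.705), by the interaction term of edgeR's fit to all 16 libraries. G0s2 was chosen with its earlier values in view, so that this is a description and not a test. The call was also lost on leaving out any 1 of 9 libraries. In 28 sets of 4 libraries, for 7 genes in 4 groups, 2 had 1 library whose gap to the nearest of the others took more of the whole range than Dixon's 95% critical value, and chance gives about 1 in 20. In Isoflurane control, G0s2 was 14.6 CPM in library 6 and 21.9 to 23.3 CPM in the other 3. In Propofol sepsis, Abhd5 was 14.6 CPM in library 12 and 16.7 to 16.9 CPM in the other 3. No explanation was tested.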

How the results depend on the processing

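Of 441 alternative values of the log2 fold changes of the 7 genes, 396 kept direction and call, 35 lost a call, 5 gained one and 5 changed sign. The sign changes were small values that were not called: Abhd5 under propofol with thinned counts (0.0174), without library 12 (0.0463) and without library 13 (0.0421), Cidec under propofol without library 15 (0.00445), and Plin2 between the controls without library 15 (0.0736). Over the libraries left out these ran from -0.0501 to 0.0463, from -0.222 to 0.00445 and from -0.764 to 0.0736. Abhd5 was not called higher under isoflurane, so that the count of genes called higher was 0 in place of 1, with library totals alone, DESeq2, no filter, and each library left out (0 to 0). For the difference of the responses, the count called lower was 1 in place of 0 with DESeq2, and 0 to 1 over the libraries left out, and the count called higher was 0 to 1. For the other lipid-handling genes it was 1 lower and 2 higher with DESeq2, and 0 to 2 lower and 0 to 2 higher over the libraries left out (Bscl2, Agpat9, Lpin3 and Hif1a without library 1, Hif1a without library 4, Vldlr without library 10). Over all genes, the difference of the responses had 176 calls higher and 113 lower, against 502 and 337 with DESeq2, 101 and 67 with no filter, 865 and 750 without library 1 and 29 and 25 without library 12. Library totals alone gave 1674 higher and 2704 lower calls under propofol (2107 and 2245 with TMM) and 1139 and 3824 between the controls (2225 and 2243), where they moved the median of all genes to -0.145, and Abhd5 was then called lower in Isoflurane control (-0.264). All 16 libraries in 1 fit gave 1379 and 1413 between the controls, and Plin5 was not called there. The nearest pattern to G0s2 was Rgs16 on group means and Adh1 on single libraries. No paired analysis was possible because the groups share no replicate numbers. Plin5, at 2 to 89 reads per library, is the gene whose value depth limits most, and the cause of the changed calls was not tested.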
